A study of Mus musculus with 12 samples.

Results

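Transcripts of 10 heat shock genes of the cytosol and mitochondria were followed in mouse preosteoblasts that grew on titanium alone or beside osteoclasts. The genes were Hspa1a, Hspa1b, Hsph1, Hspa8, Hsp90aa1, Hsp90ab1, Dnajb1, Hspb1, Hspd1 and Hspe1, found by their GENCODE M21 names among the 52654 genes complete in the 12 count files. The list was chosen on measured values of these same libraries, so levels and changes of these genes are given as a description, without p-values. The cells were MC3T3-E1 subclone 14, a single clonal line of preosteoblasts from mouse calvaria. All 4 groups grew on titanium discs, in medium for bone formation to which ascorbic acid (5 µg/mL) and β-glycerophosphate (7 mM) had been added, and total RNA was taken on day 7. Isolated cells on control titanium and isolated cells on titanium with nanotopography had no other cells. Co-culture on control titanium and co-culture on nanotopography had osteoclasts, made from RAW 264.7 macrophages with 50 ng/mL RANKL, in an insert with 0.4 µm pores above them for the last 2 days, after 5 days apart. Each group had 3 libraries. No group had RANKL or an insert without osteoclasts, so effects of osteoclasts, RANKL, the insert and the added cells cannot be told apart.

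Heat shock proteins are chaperones, which bind unfolded or partly folded proteins and help them reach or keep their shape. Proteins of the HSP70 family hold short unfolded stretches in a cycle driven by ATP, HSP40 proteins such as Dnajb1 bring them their clients, HSP110 proteins such as Hsph1 release the spent nucleotide, and HSP90 takes over clients such as kinases and steroid receptors at a late step of folding. In mitochondria Hspd1 (HSP60) forms a folding chamber that Hspe1 (HSP10) closes as a lid. Many of these genes are driven by heat shock factor 1, which binds heat shock elements, runs of alternating GAA and TTC units spaced by a pair of bases. Bone-forming cells secrete large amounts of collagen, whose own chaperones sit in the endoplasmic reticulum and are a separate group.

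The sequences below show where such alternating units stand next to these genes and how alike the promoters of the near-identical copies Hspa1a and Hspa1b are. They come from RefSeq (GRCm38.p6), whose promoter windows cover 250 bases before to 50 bases after a gene's start and matched 7 of the 10 genes; Hspa8, Hsp90aa1 and Hsp90ab1 had no entry. Both strands were searched for GAANNTTC or TTCNNGAA (2 units) and for GAANNTTCNNGAA or TTCNNGAANNTTC (3 units, each of which also holds matches of the shorter kind). Of 32817 RefSeq windows, 15.05% held a 2-unit match and 0.6% a 3-unit match. A 2-unit match stood in a window of 6 of the 7 genes, and a 3-unit match in those of Hsph1, Hspd1 and Hspe1. The 250 bases before the start of Hspa1b, at chr17:34959239-34959488 on the minus strand, held 1 match, with its units in capitals.
Hspa1b: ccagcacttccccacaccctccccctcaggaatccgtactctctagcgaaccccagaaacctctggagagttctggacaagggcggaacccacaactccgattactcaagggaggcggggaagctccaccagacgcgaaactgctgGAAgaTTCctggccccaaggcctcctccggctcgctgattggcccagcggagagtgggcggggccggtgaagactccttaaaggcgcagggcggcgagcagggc
The windows of Hspa1a and Hspa1b had the same base at 296 of 300 positions, and both carried this match at position -104, where -1 is the base before the start. The 30 bases around the matches of the other genes were as follows. The Hspb1 stretch is chr5:135887801-135887830 on the plus strand. The Hsph1 stretches are chr5:149636351-149636380 and chr5:149636287-149636316 on the minus strand. Their matches lie in a 5′ UTR exon of Hsph1 in GENCODE, so inside the gene. The labels farther and nearer below give only their order, with the farther one closer to the 5′ end. The stretch shared by Hspe1 and Hspd1 is chr1:55088053-55088082, shown on the plus strand, the strand of Hspe1, and its matches lie in a 5′ UTR exon of Hspd1.
Hspb1: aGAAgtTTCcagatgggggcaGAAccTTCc
Hsph1, farther from the gene body: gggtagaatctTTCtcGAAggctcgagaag
Hsph1, nearer the gene body: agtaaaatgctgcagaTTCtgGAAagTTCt
Hspe1 and Hspd1: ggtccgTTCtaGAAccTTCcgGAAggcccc
Hspd1 and Hspe1 overlap head to head at their starts, and the 4 alternating units, which lie inside Hspd1 and before the start of Hspe1, belong to the window of Hspe1 and to 1 of the 2 windows of Hspd1. No match was found in the windows of Dnajb1, which says only that these letters are not in those windows. No sequence here was tested for binding, and a match is not a binding site.

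Total counts ran from 5866842 to 9207831 per library, and the biological coefficient of variation was 12.3%. Osteoblast transcripts such as Col1a1, Runx2 and Sp7 were present in every group. Levels are in CPM, counts scaled to a common library total, which was adjusted by the TMM method. Plain library totals were used for sums over markers and for the marker levels in this paragraph. The summed level of 12 osteoblast markers was 93180 to 116500 CPM in 3 groups and 57680 to 71730 in co-culture on nanotopography. From isolated cells to co-culture on nanotopography, Col1a1 went from 44450 to 23630 CPM and Col1a2 from 31840 to 17770. These were the largest falls in CPM among the 12 markers. Relative to its level Ifitm5 fell furthest, from 46.3 to 6.40 CPM. Spp1 went from 131 to 456 CPM and Runx2 from 330 to 342 there. Co-culture on nanotopography also had more reads of mitochondrial ribosomal RNA, 8.66% to 15.8% of counts against 4.52% to 9.80% in the other libraries. The share of counts on Gm26917 and Gm42418, which hold ribosomal RNA reads, was 2.77% to 8.33% in isolated libraries and 0.351% to 2.08% in co-culture ones, with no overlap on either surface; with ribosomal RNA reads left out, 8 and 6 of the 9 tested heat shock genes were called higher in co-culture on control titanium and nanotopography, as with them. The summed level of 17 macrophage and osteoclast markers was 182 to 206 CPM in the other groups and 183 to 255 CPM in co-culture on nanotopography. Most of this sum was Ctsk, which isolated cells also held, so the sum says little about the other markers. Of the defining macrophage genes, Ptprc had 0, 0, 2 and 44 counts and Tyrobp 0, 0, 1 and 13 in isolated control, isolated nanotopography, co-culture control and co-culture nanotopography, Adgre1 had 0, 0, 0 and 2, and Csf1r 51, 38, 45 and 144. In the same order of groups, Ctsk had 3767, 3092, 3944 and 3939 counts and Mmp9 419, 415, 442 and 337. Atp6v0d2 had 0, 0, 7 and 73, Laptm5 3, 3, 15 and 74, Dcstamp 0, 0, 6 and 26, and Itgam 0, 0, 0 and 11. Calcr was at 0 throughout. The part of the shifts in osteoblast and macrophage markers and in mitochondrial reads in the results below was not tested. In bulk RNA, fewer cells of a type and less RNA per cell cannot be told apart.

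Counts were tested with edgeR's quasi-likelihood test, and a gene is called where the Benjamini-Hochberg adjusted p over all tested genes is below 0.05. A log2 fold change is given with its standard error (SE). A value called GC-adjusted comes from the same test after the dependence of a library's counts on GC content and transcript length had been taken out by loess, since libraries differed in it, with a change in a library's log2 level per 10 percentage points of GC of -0.81 to -0.40 in co-culture on nanotopography against -0.08 to 0.54 in the other groups; the adjustment could also remove true changes linked to GC content. For Col1a1 the adjustment moved the co-culture difference on nanotopography from -0.95 to -0.07, and for Spp1 from 1.77 to 1.34. For Ifitm5 the same difference moved from -2.90 to -2.04. Of the 12 osteoblast markers 2 were called higher and 7 lower there, against 28.7% and 30.4% of all tested genes. After adjustment 2 were called higher and 3 lower, against 18.8% and 20.7%. GC content of the longest transcript ran from 43.7% for Hsp90aa1 and 45.5% for Hspe1 to 59.0% for Hspa1a and 61.7% for Hspb1. Of the 10 genes, 9 entered the test. Hspb1 failed the filter on low counts. Hspa1a passed it only through co-culture on control titanium, the group where it was high, so a difference was built into its passing, and counts and medians over the 9 tested genes support nothing.

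**Figure D1:**
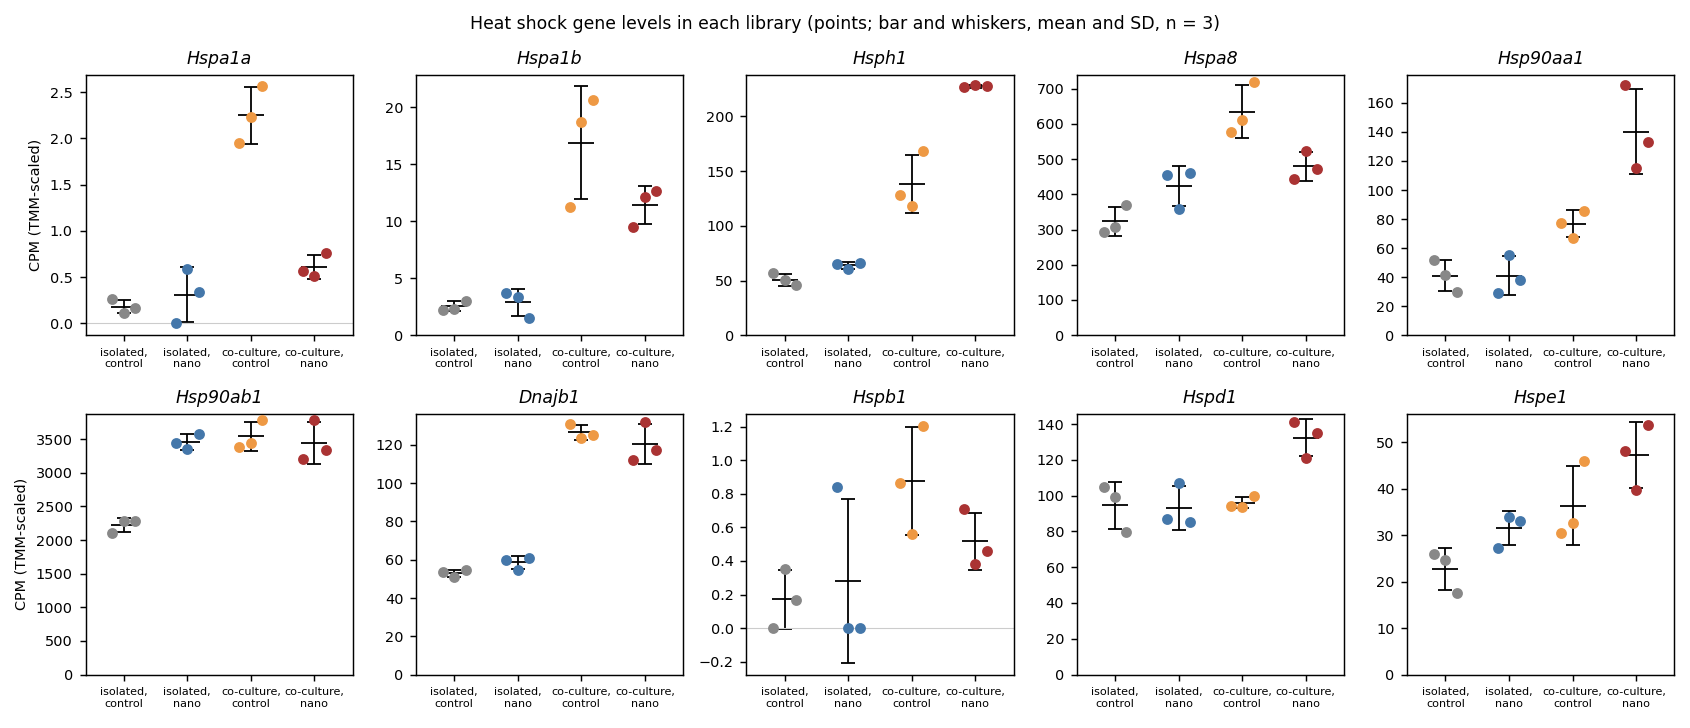
Level of each heat shock gene in each library, in CPM on a linear axis, by group (isolated or co-culture, control titanium or nanotopography). Points are libraries in order of replicate number, and the bar and whiskers are the mean and SD (n = 3). Hsph1, Dnajb1 and Hspa1b lie higher in all co-culture libraries than in any isolated one, while Hspd1 is high in co-culture on nanotopography alone. The lower whisker of Hspb1 passes below 0 because its SD exceeds its mean there.

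Hspa1b, one of the pair of stress-inducible HSP70 genes that are nearly silent in unstressed cells, had the largest co-culture difference on each surface among the members that passed the filter in every group. It lies at chr17:34956436-34959238 (GRCm38, GENCODE M21, minus strand, as for the other genes by the same annotation) and has a single exon. In isolated cells it stood at 2.22, 2.33 and 3.03 CPM on control titanium and at 3.71, 3.38 and 1.53 CPM on nanotopography. In co-culture it stood at 11.3, 18.7 and 20.6 CPM on control titanium and at 9.51, 12.1 and 12.6 CPM on nanotopography. All 6 co-culture libraries were above all 6 isolated ones, and the surfaces overlapped within each culture. Co-culture was higher by a log2 fold change of 2.74 ± 0.28 on control titanium, 6.67-fold, and by 1.97 ± 0.29 on nanotopography, where the GC-adjusted value was 2.92. Between surfaces in co-culture the value was -0.55 ± 0.23, not called, and 0.18 after GC adjustment, so its direction turned; it was called without co-culture control replicate 1, at -0.79, without isolated nanotopography replicate 3, at -0.55, with no filter, at -0.56, and with only the groups compared, at -0.54. In isolated cells the surfaces differed by 0.22 ± 0.36, not called. The interaction (the co-culture effect on nanotopography less that on control titanium) was -0.77 ± 0.43, not called, but called without co-culture control replicate 1, at -0.996. After GC adjustment the co-culture difference was 2.70 on control titanium and 2.92 on nanotopography. The GC-adjusted interaction was 0.22, not called, so its direction turned as well.

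Hspa1a, its neighbour at chr17:34969190-34972156 on the same strand, had far fewer reads. Its libraries held 2, 1 and 1 reads in isolated cells on control titanium and 0, 4 and 2 on nanotopography. Its co-culture libraries held 18, 16 and 17 reads on control titanium and 4, 4 and 5 on nanotopography. Co-culture on control titanium stood apart from every other library. There the ratio to isolated cells, from 51 against 4 reads, was 12.3 (exact 95% interval 4.51 to 46.8, which covers counting error only), and the fitted log2 fold change was 3.504 ± 0.58. On nanotopography, 13 against 6 reads gave a ratio of 1.88 (0.666 to 6.02) and 0.88 ± 0.69 on the log2 scale, not called, and 1.87 and called after GC adjustment, though not with a replicate block beside it. Between surfaces in co-culture it was called lower at -1.85 ± 0.46, which GC adjustment moved to -1.10 and ended the call. The interaction of -2.62 ± 1.02 was called, and was -1.62 and not called after GC adjustment; its call was also lost when any library but co-culture control replicate 1, co-culture nanotopography replicate 3 or isolated nanotopography replicate 1 was left out, at -1.76 to -2.98.

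Reads of these copies are hard to divide, because 60.4% of the 50-base stretches of the Hspa1a transcript and 62.3% of those of Hspa1b also occur in another gene, nearly all in each other. How the authors' counting treated reads that fit several places is not given in the sources used here. Summed, the pair stood at 2.71 ± 0.42 CPM in isolated cells on control titanium and 3.18 ± 1.14 on nanotopography (mean ± SD, n = 3). With osteoclasts it stood at 19.1 ± 5.25 and 12.02 ± 1.73 CPM on these surfaces. The summed pair was higher in co-culture by 2.82 ± 0.26 and 1.90 ± 0.27 on the log2 scale on control titanium and nanotopography. Between surfaces the sum differed by 0.26 ± 0.34 in isolated cells and by -0.66 ± 0.22 in co-culture, where the sum was called and Hspa1b alone was not. The interaction of the sum was -0.92 ± 0.40, not called. The sum was not fitted with GC adjustment. Hspa1b held 375 of the 426 summed reads in co-culture on control titanium and 245 of 258 on nanotopography. Its own surface value in co-culture turned from -0.55 to 0.18 with that adjustment. The summed pair and Hspa1b both gave no called interaction, unlike the few reads of Hspa1a.

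Hspa8 (chr9:40800984-40810087, plus strand), the constitutive cytosolic HSP70 called HSC70, was abundant throughout. Isolated cells had 293, 308 and 370 CPM on control titanium and 454, 359 and 460 CPM on nanotopography. Co-cultured cells had 576, 610 and 718 CPM on control titanium and 444, 523 and 471 CPM on nanotopography. Co-culture on control titanium was above all other libraries, isolated cells on control titanium held the lowest 2 libraries, and the remaining groups overlapped in between. Co-culture was higher by 0.97 ± 0.13 on control titanium, called, and by 0.18 ± 0.12 on nanotopography, not called, with -0.08 after GC adjustment. Nanotopography was lower in co-culture by -0.40 ± 0.12 (GC-adjusted -0.56), a call lost without co-culture control replicate 3, at -0.31, or co-culture nanotopography replicate 1, at -0.35. In isolated cells nanotopography gave 0.39 ± 0.12, not called, but called when co-culture nanotopography replicate 1, isolated control replicate 3 or isolated nanotopography replicate 2 was left out, at 0.40, 0.49 and 0.49, and under 9 of the alternatives that kept all libraries, at 0.37 to 0.50. The interaction was called at -0.79 ± 0.18, with -1.06 after GC adjustment. Of the 50-base stretches of Hspa8, 51.4% occur in another gene, mainly processed pseudogenes; with 3 such pseudogenes added in, the co-culture values were 0.99 and 0.19.

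Hsph1 (chr5:149614287-149636376, minus strand), the HSP110 partner that recharges HSP70, was the member with the most even levels in co-culture on nanotopography. Its isolated libraries held 56.5, 50.0 and 45.8 CPM on control titanium and 65.2, 60.3 and 65.7 CPM on nanotopography. Its co-culture libraries held 128, 118 and 169 CPM on control titanium and 227, 229 and 227 CPM on nanotopography. The 4 groups formed 4 separate steps with no overlap between any of them. Co-culture was higher by 1.44 ± 0.13 on control titanium, 2.72-fold, and by 1.84 ± 0.13 on nanotopography, 3.57-fold (GC-adjusted 1.62). Within co-culture, nanotopography was higher by 0.72 ± 0.12 (GC-adjusted 0.60), called. In isolated cells the step was 0.33 ± 0.13 and not called, and the interaction was 0.39 ± 0.18, not called, with calls only without co-culture control replicate 3, at 0.56, or isolated control replicate 3, at 0.46, among the left-out libraries, and also with upper-quartile scaling, at 0.44, and protein-coding genes only, at 0.46. No 50-base stretch of the longest Hsph1 transcript occurs in a transcript of another annotated gene. Shorter or inexact matches and its other exon bases were not searched.

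Dnajb1 (chr8:83608193-83612653, plus strand), the HSP40 partner of the inducible HSP70s, differed mainly between the cultures. Alone, the cells had 53.4, 50.8 and 54.5 CPM on control titanium and 60.0, 54.7 and 61.1 CPM on nanotopography. Beside osteoclasts the cells had 131, 124 and 125 CPM on control titanium and 112, 132 and 117 CPM on nanotopography. All 6 co-culture libraries were above all 6 isolated ones, and among the isolated ones the lowest nanotopography library lay just above the highest control library. The co-culture difference was 1.26 ± 0.10 on control titanium and 1.04 ± 0.10 on nanotopography, with 1.16 and 1.44 after GC adjustment, so the order of the surfaces turned. Between surfaces in co-culture the value was -0.07 ± 0.10, not called, but 0.25 and called after GC adjustment. In isolated cells nanotopography gave 0.15 ± 0.10 and the interaction was -0.22 ± 0.14, neither called. GC adjustment turned both, to -0.03 and 0.28, again without a call.

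Hsp90ab1 (chr17:45567775-45573271, minus strand), the constitutive HSP90β, was per kilobase of exon the most abundant member in every group. Without osteoclasts the level was 2103, 2286 and 2286 CPM on control titanium and 3450, 3351 and 3582 CPM on nanotopography. With osteoclasts the level was 3392, 3448 and 3794 CPM on control titanium and 3205, 3794 and 3339 CPM on nanotopography. Isolated cells on control titanium were below all other libraries, and the other 3 groups overlapped. Co-culture was higher by 0.67 ± 0.10 on control titanium, 1.59-fold. On nanotopography the value was -0.01 ± 0.10, not called, which became 0.25 and was called after GC adjustment. Nanotopography was higher in isolated cells by 0.64 ± 0.10 (GC-adjusted 0.52), called, a call lost without isolated control replicate 1, at 0.61, or isolated nanotopography replicate 3, at 0.62. In co-culture the surfaces differed by -0.04 ± 0.10, not called. The interaction was called at -0.68 ± 0.14 and at -0.35 after GC adjustment.

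Hsp90aa1 (chr12:110690605-110702728, minus strand), the stress-inducible HSP90α, ran in another order. Levels in isolated cells were 51.5, 41.5 and 30.1 CPM on control titanium and 29.2, 55.5 and 38.1 CPM on nanotopography. Levels in co-culture were 77.2, 67.1 and 85.7 CPM on control titanium and 172, 115 and 133 CPM on nanotopography. The isolated groups overlapped, co-culture on control titanium was above them, and co-culture on nanotopography was above that. Co-culture was higher by 0.89 ± 0.21 on control titanium and by 1.77 ± 0.21 on nanotopography (GC-adjusted 1.31), both called. Nanotopography was higher in co-culture by 0.87 ± 0.20 (GC-adjusted 0.56), called, a call lost when the GC adjustment was joined with a replicate block, at 0.56, while in isolated cells it gave -0.01 ± 0.22. The interaction of 0.88 ± 0.29 was called but was 0.35 and not called after GC adjustment, and its call was lost when any of 5 libraries was left out (co-culture control replicate 2, co-culture nanotopography replicate 1, isolated control replicate 1, or isolated nanotopography replicate 1 or 3), at 0.67 to 0.82. Of its 50-base stretches, 58.5% occur in another gene, and with 2 pseudogenes added the co-culture values were 0.80 and 1.72.

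Hspb1 (HSP25, chr5:135887919-135889563, plus strand), a small heat shock protein that holds unfolded proteins without ATP, was near the limit of counting. Its libraries held 0, 3 and 1 reads in isolated cells on control titanium and 5, 0 and 0 on nanotopography. With osteoclasts they held 8, 4 and 8 reads on control titanium and 5, 3 and 3 on nanotopography. On control titanium the co-culture libraries were above the isolated ones, and on nanotopography they overlapped. Over each group, 20 against 4 reads gave a co-culture ratio of 4.81 (exact 95% interval 1.61 to 19.4) on control titanium, and 11 against 5 reads gave 1.91 (0.611 to 7.00) on nanotopography. Of its 50-base stretches, 51.7% occur in the processed pseudogene Hsp25-ps1. Summed with that pseudogene, an alternative added after seeing the data, the gene passed the filter only through co-culture on control titanium, the group where it was high, so a difference was built into its passing. Its fitted values, 2.97 ± 0.62 on control titanium and 1.20 ± 0.62 on nanotopography, are a description and support nothing.

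Hspd1 (chr1:55077835-55088243, minus strand), the mitochondrial HSP60, stood apart in 1 group. Isolated libraries stood at 105, 99.1 and 79.8 CPM on control titanium and at 87.1, 107 and 85.2 CPM on nanotopography. Co-culture libraries stood at 94.4, 93.9 and 99.6 CPM on control titanium and at 141, 121 and 135 CPM on nanotopography. Co-culture on nanotopography was above every other library, and the other 3 groups overlapped. Co-culture gave 0.02 ± 0.12 on control titanium, not called, and 0.51 ± 0.12 on nanotopography (GC-adjusted 0.35), called. Nanotopography gave -0.02 ± 0.12 in isolated cells, not called, and 0.46 ± 0.12 in co-culture (GC-adjusted 0.35), called. The interaction of 0.49 ± 0.17 was called but was 0.33 and not called after GC adjustment, and its call was lost when any of 6 libraries was left out (co-culture control replicate 2, co-culture nanotopography replicate 1, isolated control replicate 1 or 2, or isolated nanotopography replicate 1 or 3), at 0.40 to 0.48. Of its 50-base stretches, 44.8% occur in another gene, mainly the processed pseudogene Hspd1-ps3.

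Hspe1 (chr1:55088132-55091307, plus strand), the lid of the HSP60 chamber, was higher in co-culture on both surfaces. Cells kept alone stood at 26.0, 24.7 and 17.7 CPM on control titanium and at 27.3, 33.99 and 33.2 CPM on nanotopography. Co-cultured cells stood at 30.5, 32.6 and 46.1 CPM on control titanium and at 48.1, 39.7 and 53.9 CPM on nanotopography. The co-culture libraries were above the isolated ones on each surface, the isolated nanotopography libraries were above the isolated control ones, and the co-culture groups overlapped. Co-culture was higher by 0.66 ± 0.18 on control titanium, a call lost without co-culture control replicate 3, at 0.48. On nanotopography it was higher by 0.58 ± 0.17, called, with 0.41 and no call after GC adjustment. Nanotopography gave 0.46 ± 0.18 in isolated cells and 0.38 ± 0.17 in co-culture, neither called. The latter was called without co-culture control replicate 3, at 0.57, or co-culture nanotopography replicate 2, at 0.48, and with upper-quartile scaling, no filter or protein-coding genes only, at 0.43, 0.37 and 0.44, and the former with no filter, at 0.44. The interaction was -0.08 ± 0.25, not called. Hspd1 and Hspe1, which share the stretch printed above, gave 0.02 and 0.66 with control titanium under the co-culture, and 0.51 and 0.58 with nanotopography; their exons overlap by 112 bases on opposite strands, and whether the counting used strand is not given in the sources used here.

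**Figure D2:**
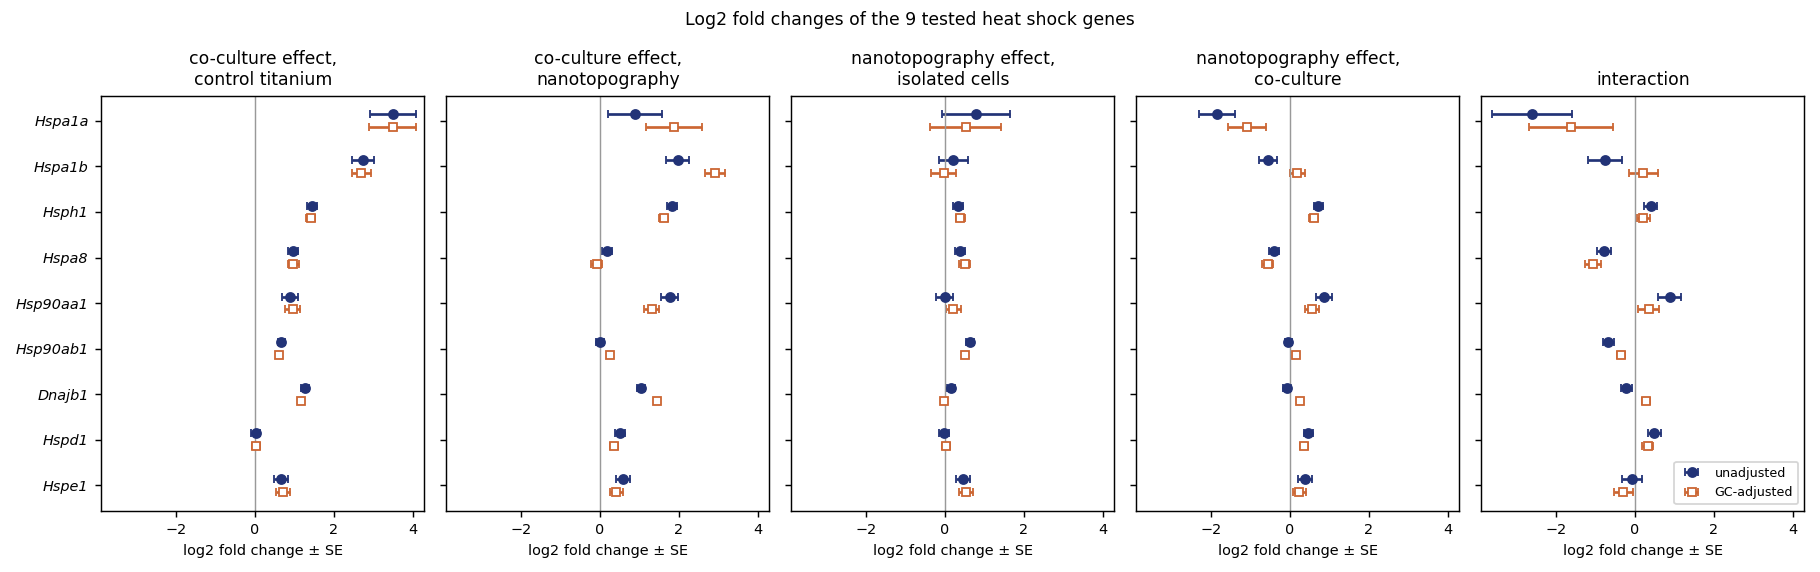
Log2 fold change with its SE for the 9 tested heat shock genes in the 4 comparisons and the interaction, before (filled circles) and after (open squares) GC adjustment. The co-culture effect on control titanium runs from 0.02 for Hspd1 to 3.504 for Hspa1a and hardly moves with the adjustment, while values that involve nanotopography in co-culture move more.

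Counted over the list, 8 of the 9 tested genes were called higher in co-culture on control titanium, 0 lower, and Hspd1 was not called. Of all 13340 tested genes, 11.0% were called higher and 8.76% lower there. After GC adjustment it was again 8 of 9, against 14.4% of all genes, and with Hspb1 counted, 9 of 10 had all 3 co-culture libraries above all 3 isolated ones, against 18.8% of tested genes. The median log2 fold change over the 9 was 0.97, against -0.02 over all tested genes. On nanotopography 6 of the 9 were called higher in co-culture and 0 lower, against 28.7% of all genes higher and 30.4% lower; Hspa1a, Hspa8 and Hsp90ab1 were not called. After GC adjustment 7 of 9 were called higher, against 18.8% of all genes, the 3 and 3 libraries did not overlap for 6 of 10, against 31.4% of tested genes, and the median was 0.88 before and 1.31 after adjustment. These comparisons chose the list, so nothing is read from its shares. Without isolated control replicate 2, 803 in place of 1468 genes were called higher and 629 in place of 1169 lower on control titanium, and leaving out isolated control replicate 1 gave 858 and 636. Leaving out co-culture control replicate 1 or 2 gave 689 or 633 lower.

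Between surfaces fewer members were called. In isolated cells 1 of 9 was called higher on nanotopography (Hsp90ab1) and 0 lower, where 4.48% of all genes were called higher and 5.62% lower, and after GC adjustment it was again 1 of 9, against 3.43%. Few calls were left over all genes without isolated control replicate 1 or 2 or isolated nanotopography replicate 1 or 3, from 1 to 45 higher and 1 to 22 lower in place of 597 and 750, and 1144 and 1768 were called without isolated nanotopography replicate 2. In co-culture Hsph1, Hsp90aa1 and Hspd1 were called higher on nanotopography, 3 of 9 against 18.6% of all genes, and Hspa1a and Hspa8 lower, 2 of 9 against 23.4%. After GC adjustment 4 of 9 were called higher there, now with Dnajb1, against 7.32% of all genes, and Hspa8 alone lower, 1 of 9 against 10.3%. Without co-culture nanotopography replicate 1, 1207 in place of 2485 genes were called higher there and 2064 in place of 3117 lower, and without co-culture control replicate 2, 1467 were called higher. In the interaction Hsp90aa1 and Hspd1 were called higher, 2 of 9 against 22.5% of all genes, and Hspa1a, Hspa8 and Hsp90ab1 lower, 3 of 9 against 25.4%. After GC adjustment 0 were called higher, against 8.33% of all genes, and Hspa8 and Hsp90ab1 remained lower, 2 of 9 against 12.3% of all genes. Nothing is read from these counts. Hspa8 and Hsp90ab1, the constitutive pair, had interaction values of -0.79 and -0.68, called also with each of the 12 libraries left out in turn. The co-culture comparisons on the 2 surfaces and the surface comparisons share groups with each other, so their values are set side by side and not correlated.

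**Figure D3:**
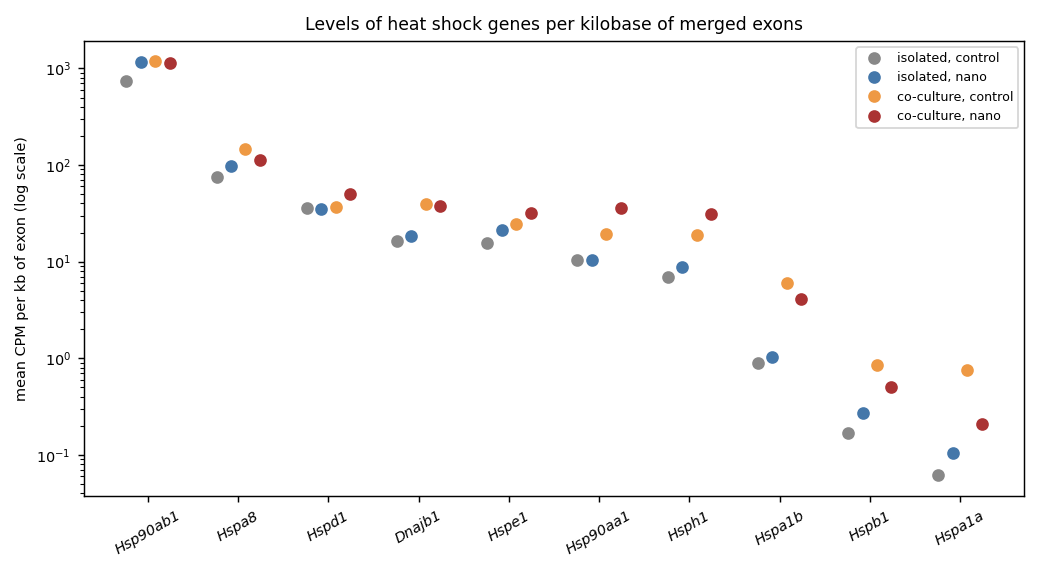
Mean level of each heat shock gene per kilobase of merged exons, in CPM per kb on a log axis, in the 4 groups (mean of 3 libraries each, no error shown). The order from Hsp90ab1, at 742 CPM per kb in isolated cells on control titanium, to Hspa1a, at 0.0613, spans 4 decades of the axis. Levels are not corrected for stretches shared with other genes or for transcripts shorter than the merged exons.

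Levels per kilobase of merged exons, from the counts as deposited, placed the constitutive genes first. Genes differ in how much of their sequence occurs elsewhere, and how such reads were counted is not given. The share of 50-base stretches found in another gene was 58.5% for Hsp90aa1, 51.4% for Hspa8 and 44.8% for Hspd1. It was 4.49% for Hsp90ab1. Merged exons of Hsph1 span 7266 bases and its longest transcript 4764. The levels were not corrected for either, which limits the order. In isolated cells on control titanium Hsp90ab1 stood at 742 ± 35.3 CPM per kb and Hspa8 at 75.2 ± 9.47. Hspd1 followed at 35.8 ± 5.01, Dnajb1 at 16.5 ± 0.586 and Hspe1 at 15.5 ± 3.04. Hsp90aa1 stood at 10.4 ± 2.73, Hsph1 at 6.99 ± 0.744 and Hspa1b at 0.901 ± 0.157. Hspb1 at 0.168 ± 0.170 and Hspa1a at 0.0613 ± 0.0247 came last. For Dnajb1 and Hspe1, and for Hspb1 and Hspa1a, the difference between neighbours was smaller than the larger SD. In co-culture on nanotopography Hspd1 stood at 50.1 ± 3.85, Dnajb1 at 37.6 ± 3.25, Hsp90aa1 at 35.7 ± 7.41, Hspe1 at 32.0 ± 4.83 and Hsph1 at 31.3 ± 0.178. There the gaps from Dnajb1 to Hsp90aa1, from Hsp90aa1 to Hspe1 and from Hspe1 to Hsph1 were each smaller than the larger SD of the neighbours, while Dnajb1 was above Hsph1 by more than either SD.

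Neither heat shock factor was called on control titanium. Hsf1, the main driver of the heat shock response, stood at 15.5 ± 1.93 CPM in isolated cells and 14.9 ± 1.75 in co-culture on control titanium, a log2 fold change of -0.07 ± 0.17 (edgeR adjusted p = 0.819). Hsf2 stood at 22.9 ± 1.85 and 23.7 ± 1.29, with 0.04 ± 0.14 (adjusted p = 0.868). Hsbp1, which encodes a protein that binds heat shock factor 1, fell by 0.37 on the log2 scale (adjusted p = 0.0428). On nanotopography Hsf1 was 16.4 ± 2.16 CPM without and 10.7 ± 2.10 with osteoclasts, a fall by 0.62 (adjusted p = 0.00591) that was -0.16 (adjusted p = 0.455) after GC adjustment. Hsf2 stood at 22.0 ± 1.43 and 27.3 ± 4.29 CPM there, with 0.31 ± 0.14 (edgeR adjusted p = 0.056), and GC adjustment turned its direction to -0.85 (adjusted p = 9.92e-05), with an interaction of 0.27 (adjusted p = 0.248) before and -1.13 (adjusted p = 0.00081) after it. Hsbp1 fell by 0.36 (adjusted p = 0.0186) on nanotopography too. Heat shock factor 1 is controlled mainly at the protein level, which these data did not measure.

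**Figure D4:**
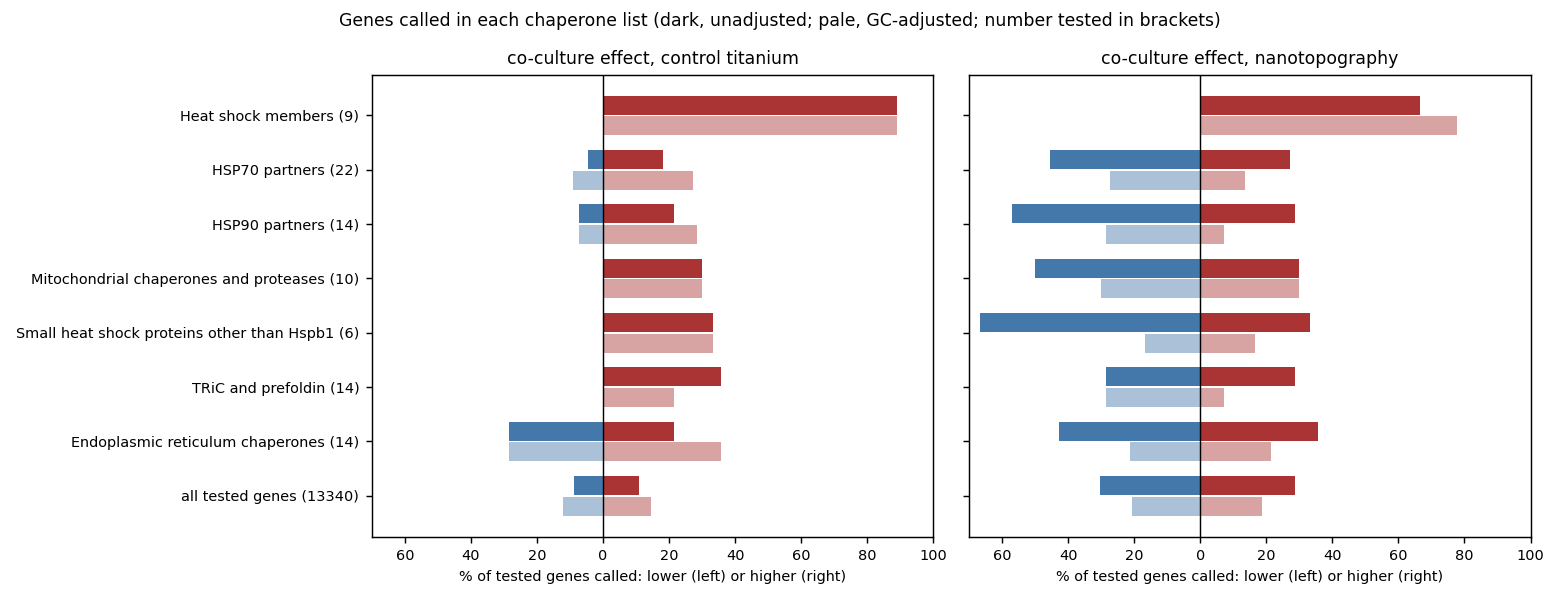
Percent of tested genes called lower (left of 0) or higher (right of 0) in co-culture than in isolated cells on each surface, for the heat shock genes described here, 6 lists of other chaperones and all tested genes, before (dark) and after (pale) GC adjustment. The heat shock genes were chosen on these comparisons, with 8 of 9 and 6 of 9 called higher, while the other lists hold calls in both directions on nanotopography.

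Other chaperone genes, from lists chosen with earlier results of these data known, are given by list, first on control titanium. Over all 13340 tested genes co-culture gave 1468 higher and 1169 lower there, with a median log2 fold change of -0.02. Of 22 tested partners of HSP70, a list that also holds Hspa2, itself an HSP70, 4 rose and 1 fell, with a median of -0.03. Among them St13, a co-chaperone that links HSP70 to HSP90, went from 164 ± 12.5 to 281 ± 19.7 CPM, a log2 rise of 0.78 ± 0.11 (edgeR adjusted p = 6.28e-05). The nucleotide exchange factors Bag2 and Bag3 rose by 0.66 ± 0.13 (adjusted p = 0.00134) and 0.54 ± 0.13 (adjusted p = 0.00756), and the HSP40 Dnajb6 fell by 0.71 (adjusted p = 0.00634). Of 14 partners of HSP90, 3 rose and 1 fell, with a median of -0.03. Stip1, which passes clients from HSP70 to HSP90, rose by 0.46 ± 0.13 (adjusted p = 0.0168), and so did Sugt1 by 0.55 ± 0.13 (adjusted p = 0.00655). Fkbp5, a partner at steroid receptors, fell by 0.64 (adjusted p = 0.000442).

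In mitochondria Hspa9 (mortalin, the HSP70 of that compartment) rose from 403 ± 16.8 to 1018 ± 75.8 CPM on control titanium, a log2 rise of 1.33 ± 0.10 (edgeR adjusted p = 8.67e-08), and on nanotopography from 399 ± 31.7 to 1070 ± 67.9 CPM, by 1.42 ± 0.10 (adjusted p = 9.57e-09; GC-adjusted 1.16). The chamber genes Hspd1 and Hspe1 stood at 0.02 and 0.66 on control titanium and at 0.51 and 0.58 on nanotopography, as given above. Of the 10 mitochondrial chaperones and proteases 3 rose on control titanium and 0 fell (median 0.13), the others being the protease Lonp1, by 0.71 ± 0.11 (adjusted p = 0.000175), and Trap1, the HSP90 of mitochondria, by 0.55 ± 0.13 (adjusted p = 0.00572). Of 6 tested small heat shock genes other than Hspb1 (median 0.10), Hspb7 rose from 47.0 ± 3.37 to 109 ± 10.7 CPM, by 1.20 ± 0.11 (adjusted p = 8.11e-07), and Hspb8 by 0.46 ± 0.14 (adjusted p = 0.0269), while Cryab was at -0.08 ± 0.12 (adjusted p = 0.664). Of 14 genes of the TRiC chamber and its helper prefoldin, 5 rose and 0 fell (median 0.19), by 0.32 for Cct2 (adjusted p = 0.0278) up to 0.55 for Cct7 (adjusted p = 0.0149), but 3 after GC adjustment, where Cct7 stood at 0.58 and was not called (adjusted p = 0.0773).

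On nanotopography, where over all genes 3835 were called higher and 4055 lower in co-culture, with a median of 0.00, and after GC adjustment 18.8% of tested genes higher and 20.7% lower, each of these lists held calls in both directions. Of the HSP70 partners 6 rose and 10 fell (median -0.15), and 3 rose and 6 fell after GC adjustment (median 0.05). St13 rose by 0.95 ± 0.11 (edgeR adjusted p = 1.35e-06), with 0.15 (adjusted p = 0.194) after adjustment, and Bag6, which guides membrane proteins and others to degradation, fell by 1.52 (adjusted p = 8.8e-07), with -0.40 after it. Of the HSP90 partners 4 rose and 8 fell (median -0.59), and 1 and 4 after adjustment (median -0.12), with Cdc37, which brings kinases to HSP90, down by 1.19 (adjusted p = 1.4e-07; GC-adjusted -1.23). Of the mitochondrial genes 3 rose and 5 fell (median -0.28), and 3 and 3 after adjustment (median -0.13), with Grpel1, the exchange factor of Hspa9, down by 1.08 (adjusted p = 7.11e-07; GC-adjusted -1.23). Of the small heat shock genes 2 rose and 4 fell (median -0.68), and 1 and 1 after adjustment (median -0.07), with Hspb7 up by 0.70 ± 0.11 (adjusted p = 5.09e-05; GC-adjusted 1.60) and Cryab down by 1.25 (adjusted p = 2.91e-07; GC-adjusted -0.58). Of the TRiC and prefoldin genes 4 rose and 4 fell (median -0.19), and 1 and 4 after adjustment (median -0.10).

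The chaperones of the endoplasmic reticulum, a separate set, went both ways. Of 14 genes 3 rose and 4 fell (median 0.07) in co-culture on control titanium, where Calr, the lectin chaperone calreticulin, rose by 0.54 ± 0.13 (edgeR adjusted p = 0.00762) and Manf fell by 0.47 (adjusted p = 0.00472). On nanotopography 5 rose and 6 fell (median -0.17), and 3 and 3 after GC adjustment (median -0.09), with Manf down by 1.03 (adjusted p = 6.19e-07; GC-adjusted -0.76), Hspa5 (BiP) up by 0.82 ± 0.10 (adjusted p = 3.53e-06; GC-adjusted 0.51) and Hsp90b1 (GRP94) up by 1.17 ± 0.13 (adjusted p = 1.37e-06; GC-adjusted 0.54). Among 18 immediate early genes, which also respond to handling of cells, 9 rose and 3 fell in co-culture on control titanium (median 0.48). Atf3 went from 3.09 ± 0.983 to 18.3 ± 1.06 CPM, by 2.57 ± 0.22 (adjusted p = 3.4e-07), and Jund fell by 1.36 (adjusted p = 4.05e-06). With nanotopography 10 of the 18 rose and 7 fell in co-culture (median 0.49), against 28.7% and 30.4% of all tested genes. After GC adjustment 10 rose and 3 fell (median 0.70), against 18.8% and 20.7%. Atf3 stood at 2.79 there (GC-adjusted 3.16) and Jund at -3.695 (GC-adjusted -1.67). On control titanium the summed level of the 18 genes, on plain library totals, was 897 to 928 CPM in isolated cells and 830 to 848 CPM in co-culture. On nanotopography it was 752 to 808 CPM in isolated cells and 684 to 761 CPM in co-culture. The sum holds Klf4, which went from 472 to 277 CPM on control titanium, a larger fall than that of the sum. The part of handling in the heat shock results was not tested.

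Between surfaces in isolated cells, 597 of all genes were called higher on nanotopography and 750 lower (median 0.01), 3.43% and 2.02% after GC adjustment, and 1 each way without isolated control replicate 1. Of the HSP90 partners 3 rose and 2 fell on nanotopography (median 0.24), and 3 and 0 after adjustment, with Stip1 up by 0.50 (edgeR adjusted p = 0.0252; GC-adjusted 0.36) and Cdc37 by 0.52 (adjusted p = 0.0146; GC-adjusted 0.48), beside the rise of Hsp90ab1 given above. Of the HSP70 partners 4 rose and 1 fell (median 0.07), and 3 and 0 after adjustment. The adjustment ended the call of Hspa2, an HSP70 placed in this list (0.56, edgeR adjusted p = 0.0252, GC-adjusted p = 0.124). It also ended those of Bag3 (0.50, adjusted p = 0.027, GC-adjusted p = 0.111) and Bag1 (0.45, adjusted p = 0.0339, GC-adjusted p = 0.179). Of the TRiC and prefoldin genes 4 rose and 1 fell (median 0.33), and 4 and 0 after adjustment, with Cct2 up by 0.41 (adjusted p = 0.0209; GC-adjusted 0.45). In co-culture, where 2485 of all genes were called higher and 3117 lower (median -0.02), with 7.32% of tested genes higher and 10.3% lower after GC adjustment, the mitochondrial list held 1 that rose and 6 that fell on nanotopography (median -0.49), and 0 and 2 after GC adjustment, with Trap1 down by 0.70 (adjusted p = 0.000711; GC-adjusted -0.41) and Lonp1 by 0.66 (adjusted p = 0.000241; GC-adjusted -0.09). Of the HSP70 partners 6 rose and 7 fell (median 0.03), and 3 and 3 after adjustment, with Bag2 down by 0.76 (adjusted p = 0.000299; GC-adjusted -0.57), and of the HSP90 partners 3 rose and 5 fell (median -0.13), and 2 and 3 after adjustment.

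The interaction called 2999 of all genes higher and 3385 lower (median -0.05), and after GC adjustment 8.33% of tested genes were called higher and 12.3% lower. It called 4 HSP90 partners higher and 7 lower (median -0.47), and 1 and 6 after GC adjustment; Cdc37 was lower, at -1.19 (edgeR adjusted p = 5.67e-05; GC-adjusted -1.13). Of the TRiC and prefoldin genes 1 was called higher and 5 lower (median -0.26), and 0 and 5 after adjustment, with Cct2 at -0.57 (adjusted p = 0.00281; GC-adjusted -0.69). Of the mitochondrial genes 2 were called higher and 6 lower (median -0.72), and 1 and 3 after adjustment, with Grpel1 at -1.18 (adjusted p = 7.97e-05; GC-adjusted -1.31). The constitutive members Hspa8 and Hsp90ab1 were called lower in the same contrast before and after adjustment, as given above.

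Outside the lists, the protein-coding genes whose log2 CPM ran most like Hsph1 over the 12 libraries, among 8026 with a mean of at least 10 CPM, were Nfe2l2, Asap1, Ccdc141, Fgd6 and Igsf10, with Pearson's r from 0.97 to 0.98 as a measure of likeness. For Hspd1 they were Rnf20, Brd8, Ncl, Prrc2c and Cwc22, with r from 0.96 to 0.98. All 10 had a GC content between 42.8% and 48.7%, against 47.3% for Hsph1 and 46.8% for Hspd1. The libraries share their groups and their dependence on GC content, so r is a description only.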

How the data were processed

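The deposited files hold whole-number read counts for each gene and library. Per the submitters' processing notes, the genome build was mm10 and the tools included STAR 2.4, HTSeq, cutadapt, FastQC 0.63 and DESeq2, with no role, strand setting or handling of reads that fit several places given. Of the 12 files, 11 end within a line, and the 52654 genes complete in all were used; all matched GENCODE M21. In R 4.3.3, edgeR 4.0.16 (TMM scaling, low-count filter with a minimum count of 10, 4 group means, robust quasi-likelihood tests) tested 13340 genes, with Benjamini-Hochberg adjustment over all of them. The SE was taken as the size of a log2 fold change over the square root of its F statistic. GC adjustment used loess (span 0.3). The log2 CPM used for likeness had a prior count of 2. Methods were tested on simulated data. Depth was 5866842 to 9207831 counts per library. The exact intervals pool the reads of a group's 3 libraries, so they cover counting error only and leave out the spread between libraries. Reads are also not independent molecules, so the counting error itself may be larger.

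The members and gene lists were chosen with earlier results of these data known. Named genes are the 10 members, Hsf1, Hsf2 and Hsbp1, up to 4 genes with the smallest p per list and comparison (those named in the text are among them), and the 5 genes most like Hsph1 and Hspd1. Alternatives were other scalings, filters, DESeq2 1.42.0, fewer groups or genes, GC adjustment, a replicate block, summed copies and leaving out each library. The series calls the 3 libraries of a group biological triplicates; nothing says that replicate numbers pair samples.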

Additional observations from a re-analysis of the deposited data

Results flagged for a closer look

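For 5 members the co-culture difference on nanotopography departed from that on control titanium by edgeR's test of the interaction (adjusted p below 0.05 over 13340 genes). Since the members were chosen with these results known, this is a description. Hspa1a passed the filter on low counts only through co-culture on control titanium, where it was high. A difference was thus built into its passing, and its call supports nothing. The difference of the differences was -2.62 for Hspa1a, which rests on 74 reads over the 12 libraries, -0.79 for Hspa8 and -0.68 for Hsp90ab1, and it was 0.88 for Hsp90aa1 and 0.49 for Hspd1. After GC adjustment Hspa8 and Hsp90ab1 were still called, at -1.06 and -0.35, and Hspa1a, Hsp90aa1 and Hspd1 were not, at -1.62, 0.35 and 0.33. The calls of these 3 were also lost when single libraries were left out, at -1.76 to -2.98 for Hspa1a, 0.67 to 0.82 for Hsp90aa1 and 0.40 to 0.48 for Hspd1. Groups of 3 libraries are too small for a test of single outlying libraries.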

How the results depend on the processing

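Under the alternatives that kept all 12 libraries, GC adjustment turned the direction of Hsp90ab1 in co-culture against isolated cells on nanotopography to 0.25 (0.25 also with the replicate block) and of Dnajb1 between surfaces in co-culture to 0.25 (0.25 with the block); the cause was not tested. Members called higher on nanotopography in isolated cells, 1 of 9, became 2 with DESeq2 size factors, with DESeq2, with a filter of 1 CPM, with the replicate block, with GC adjustment and block, without ribosomal RNA reads, with protein-coding genes only and with pseudogenes summed in, and 3 without a filter. GC adjustment, with or without the block, left 1 member lower between surfaces in co-culture and 0 higher in the interaction. Over all genes, counts higher and lower with GC adjustment (and with GC adjustment and block) were 2512 and 2762 (2405 and 2660) for co-culture on nanotopography, 458 and 269 (325 and 192) for the surface in isolated cells, 976 and 1376 (861 and 1245) for the surface in co-culture, and 1111 and 1637 (986 and 1498) for the interaction. Genes lower on nanotopography in isolated cells were 750, 1278 without a filter and 494 with only the groups compared, a setting that for the interaction is the full design and was not run again. Replicate numbers are not said to pair the samples. Deviations from the group mean correlated at -0.39 to 0.30 over the 18 same-numbered pairs, 6 of them above 0.1. Of 12 libraries, 4 correlated best with their own number. Other differences between libraries also enter these correlations, so they cannot decide whether same-numbered samples were handled together. With the replicate block alone, Hspa8 was called between surfaces in isolated cells, at 0.39, and the interaction of Hspa1a, at -2.61, was not called. The interaction of Hspa1a was also not called without a filter or with DESeq2, at -2.61 and -2.69. All 40 group levels moved by less than 1 SD with plain totals.

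With each library left out in turn, members called were 7 to 8 higher in co-culture on control titanium, 6 to 6 on nanotopography, 0 to 2 higher on nanotopography in isolated cells, 3 to 4 higher and 1 to 3 lower on nanotopography in co-culture, and 0 to 3 higher and 2 to 4 lower in the interaction. Genes called higher and lower were 803 to 1715 and 629 to 1284, 3229 to 4143 and 3499 to 4098, 1 to 1144 and 1 to 1768, 1207 to 2690 and 2064 to 3289, and 2416 to 3391 and 2902 to 3561, in the same order of comparisons. For the surface in isolated cells, 1 gene was called in each direction without isolated control replicate 1, and 2 higher and 1 lower without isolated nanotopography replicate 3, so the shares of all genes given for that comparison rest on these libraries. Depth limits Hspa1a and Hspb1, with 74 and 40 reads in all.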
